A study of Mus musculus with 3 samples.

Results

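Day 2 of Gata6 overexpression in mouse embryonic stem (ES) cells was compared with day 1, using the array labelled day 2 and the array labelled day 1, which are 2 of the 3 arrays of the study. The third array, labelled as the control and called day 0 here, is given as context. The ES cells of the study had been modified so that Gata6 overexpression responds to dex, taken here to mean the synthetic glucocorticoid dexamethasone. The day 1 and day 2 arrays are labelled as Gata6 overexpression, and it is not stated for the day 0 cells whether they carried it. The sources used here do not give the line, or when and how much dex was added. Each day was measured once, on 1 Affymetrix array of total RNA, so the days cannot be told apart from the single culture and array that stand for each, and no test was possible. The RNA came from whole cultures, in which fewer cells of a type and less RNA per cell cannot be told apart.

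Gata6 is a zinc finger transcription factor that binds the motif core GATA and is required for the primitive endoderm, the layer of the blastocyst that sits beside the pluripotent epiblast. Primitive endoderm gives rise to the parietal endoderm, whose cells migrate and lay down a thick basement membrane, and to the visceral endoderm, a polarised epithelium that takes up maternal proteins and secretes plasma carrier proteins. Forced Gata6 expression in ES cells is known to drive them towards these extraembryonic endoderm fates. The comparison of day 2 with day 1 asks which genes differed in the second day, when the Gata6 signal was already high.

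Values are signals of probe sets, the groups of short probes that read 1 transcript, on a linear scale. Signals under 54.0, the 40th percentile of all values, were set to that floor. A gene was compared where its signal exceeded the floor on day 1 or day 2, and it is called higher or lower where both days differed at least 2-fold. Where the dimmer day lay at the floor, or within the background of olfactory and vomeronasal receptor genes, the fold is a lower bound. Such a fold is printed as at least N-fold. The 95th percentile of this background was 67.8 on day 1 and 69.4 on day 2, and the limit of 69.4 was applied to both days. The only error that could be estimated is the disagreement between probe sets of the same gene: the SD of the log2 ratio was 0.35 over 15897 pairs, from 0.43 for signals under 200 to 0.12 for signals over 5000. It does not cover the spread between cultures. The median signal was 81.8 on day 1 and 86.4 on day 2, 12289 and 12646 of 18193 genes lay above the floor, and the 3' to 5' signal ratios of the control probe sets, which follow RNA integrity, for Actb and Gapdh were 1.21 and 0.766 on day 1 and 1.24 and 0.765 on day 2.

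Gata6 had a signal of 109.6 on day 0, of 5574 on day 1 and of 6069.6 on day 2, a log2 ratio of 0.12 between the later days. A further Gata6 probe set read 177 on day 0, 3769 on day 1 and 4316 on day 2, a log2 ratio of 0.20. The third, which is dim, read 4.9, 50.4 and 102.6. The bright pair of probe sets thus differed between day 1 and day 2 by less than the 2-fold threshold, and it is not stated whether they read the introduced Gata6, the endogenous gene or a mixture.

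Around this near-level Gata6 signal, 756 of 13468 compared genes were at least 2-fold higher on day 2, which is 5.61%, and 494 were at least 2-fold lower, which is 3.67%. Together they make 9.28% of the genes compared, and the median log2 ratio of all compared genes was -0.01. The ratios of 6889 genes, or 51.2%, lay within 1 probe-set SD of 0. Wide differences were mostly towards day 2: a 4-fold ratio was reached by 109 higher and 37 lower genes, and an 8-fold ratio by 24 higher and 2 lower genes. The day 1 signal of 6581 genes was at least 8 times the floor, so an 8-fold lower value could have been read for each of those. The dimmer day lay at the floor for 141 of the higher and 105 of the lower genes. Several probe sets lay above the floor for 333 of the higher genes, and for 294 of these all ratios were on the same side of 0, as they were for 169 of 207 such lower genes. Among 71 receptor genes on the array, which served as background, 15 could be compared and 1 differed at least 2-fold.

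**Figure D1:**
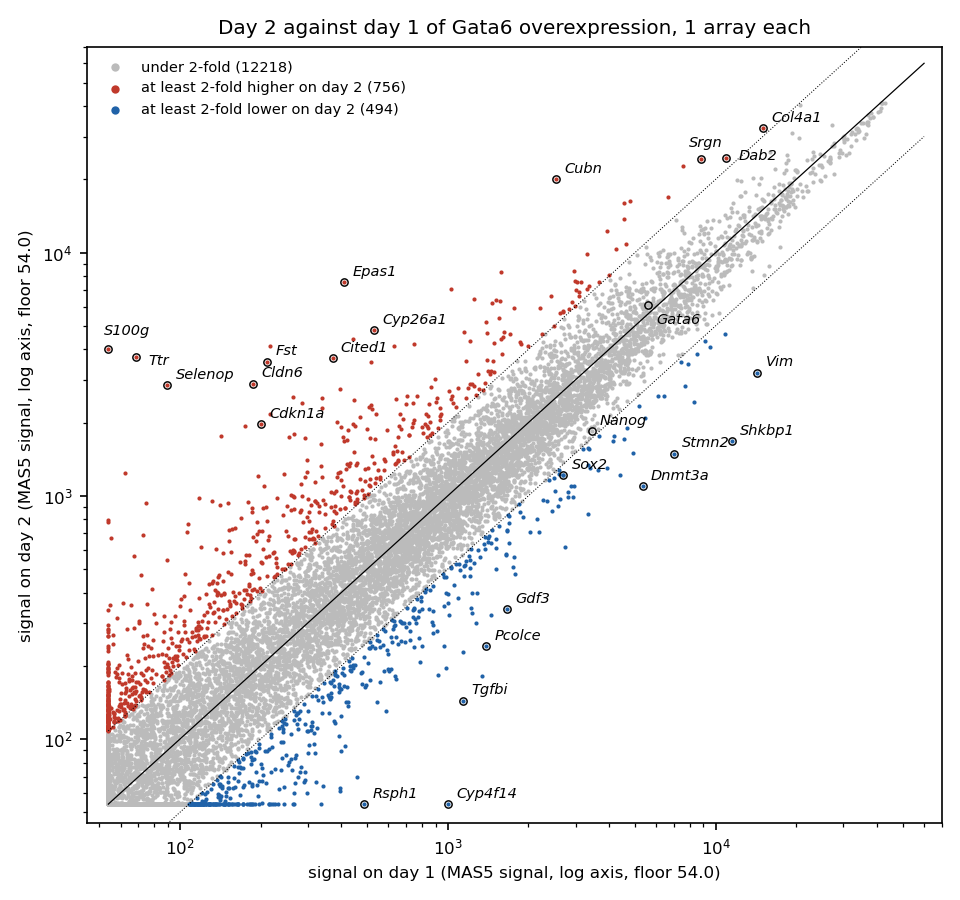
Signal on day 1 (horizontal) against signal on day 2 (vertical) for each compared gene, both on log axes with values under 54.0 drawn at the floor; dotted lines mark 2-fold. Gata6 lies near the line of equality, 756 genes lie above the upper dotted line and 494 below the lower one, with S100g and Ttr farthest above and Cyp4f14 farthest below.

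Summed markers of ES cells were lower on day 2 than on day 1, and those of both extraembryonic endoderm layers were higher. The summed signal of 5 ES cell markers (Pou5f1, Nanog, Sox2, Zfp42 and Esrrb) came to 60185 on day 0, to 15392 on day 1 and to 8192 on day 2. That of 5 primitive endoderm markers (Gata4, Sox17, Sox7, Pdgfra and Dab2) was 189.9, 30961 and 49229. For 6 visceral endoderm markers the sum was 726, 7053 and 31748, with Cubn at 20097 on day 2. The late visceral marker Afp, the fetal albumin-like carrier, was under the floor on each day, and Apoa1, an apolipoprotein, reached 56.6 on day 2. The sum of 5 parietal endoderm markers was 6843, 39587 and 68719, with Sparc at 40302 and Lamb1 at 23289 on day 2. Sparc and Lamb1, which made up most of this sum, stayed under 2-fold between day 1 and day 2. The dimmer Thbd, Plat and Pth1r were higher. Fibroblast markers, which would show feeder cells, summed to 546, 193.9 and 207.7, and Col1a1, Col3a1 and Postn were under the floor on each day. Markers of trophoblast, mesoderm, neural and blood cells had sums between 81.6 and 424.3 on day 1 and between 154.0 and 188.2 on day 2, with Elf5, Tpbpa, Sox1, Hbb-y and Ptprc at the floor on both.

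Among the 20 genes with the highest ratios were plasma proteins, tight junction proteins and regulators of secreted signals, and several were under or near the floor on both earlier days. S100g, the vitamin D-responsive calcium carrier calbindin, had signals of 13.2 on day 0, 26.3 on day 1 and 3998 on day 2, at least 74.0-fold higher. Ttr, the plasma carrier of thyroxine and of retinol-binding protein, went from 68.5 on day 1 to 3728 on day 2, at least 54.4-fold higher, and its 4 probe sets gave log2 ratios of 5.06 to 5.77. Both were under the floor on day 0. Selenop, the plasma selenium carrier, read 121, 89.8 and 2842, which is 31.6-fold higher on day 2 than on day 1. Nxf7, a member of the mRNA export factor family, read 9.2, 62.3 and 1243, a log2 ratio of at least 4.32. On the probe sets used, Timp3, an inhibitor of matrix metalloproteinases, and Hdc, the enzyme that makes histamine, were under the floor on day 1. They read 778 and 795 on day 2, at least 14.4-fold and at least 14.7-fold higher. Another Timp3 probe set read 97.4 on day 1 and 636 on day 2, and the 4 of this gene gave log2 ratios from 2.71 to 3.85.

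Several other genes at this end, such as Epas1, Fst and Cryab, already had a signal well above background on day 1, whereas Gpc6, Filip1l and Enpep lay close to it (55.4, 72.7 and 74.9). Epas1, an alpha subunit of the hypoxia-inducible factors, read 1656 on day 0, 409.6 on day 1 and 7544 on day 2, 18.4-fold higher, and its second probe set also had its lowest signal on day 1 (388, 91.3 and 965). Fst, the secreted activin antagonist follistatin, read 117, 211 and 3560.5, 16.9-fold higher. Cryab, a small heat shock protein, read 172, 216 and 4142, 19.2-fold higher, with a second probe set at 4029 on day 2. The remaining Cryab probe set was under the floor on each day. The gene's call thus rests on probe sets of the kind that can read several transcripts of the same gene. Cited1, a transcriptional coregulator, was 9.94-fold higher, Pth1r, the receptor for parathyroid hormone-related protein, 9.94-fold, and Cdkn1a, an inhibitor of cyclin-dependent kinases, 9.81-fold. Pdpn, a membrane mucin, was 9.99-fold higher, Adam19, a membrane metalloprotease, 11.1-fold, Enpep, a membrane aminopeptidase, 12.49-fold, and Gpc6, a glypican, at least 12.1-fold. Ap1m2, the epithelial form of a clathrin adaptor subunit, was 9.68-fold higher and Filip1l 9.49-fold.

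The 20 lowest ratios were smaller in size and included genes that were bright on day 1 alone. Cyp4f14, a cytochrome of the fatty acid hydroxylase family, read 4.5 on day 0, 1006 on day 1 and 41.1 on day 2, at least 18.6-fold lower. Akr1c13, an aldo-keto reductase, read 37.6, 1139 and 228, 5.00-fold lower, so a day 1 signal above both neighbouring days was seen for it too. Shkbp1, a protein that binds an endocytic adaptor, read 1128, 11461 and 1675, 6.84-fold lower. Rsph1, a radial spoke protein of cilia, read 95.6, 487 and 42.7, at least 9.02-fold lower. These 4 genes shared the order of a low day 0, a high day 1 and a lower day 2, as did Dnmt3a, described with the DNA methylation genes, and Cstdc1 and Apobec2. All of them are 1 array a day, and the day 1 value is the common side of both steps.

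The other genes at this end had no single order of day 0 and day 1. Pcolce, which enhances the processing of fibrillar procollagens, read 5360.5, 1393 and 241, 5.79-fold lower on day 2 than on day 1. Gdf3, a ligand of the transforming growth factor family found in pluripotent cells, read 3506, 1669 and 342, 4.88-fold lower. Dmrt1, a transcription factor of the germ line, and Psma8, a proteasome subunit of germ cells, were 4.99-fold and at least 5.35-fold lower. Tgfbi, a secreted matrix protein, read 901, 1143 and 144, 7.94-fold lower, and its 4 probe sets gave log2 ratios from -3.67 to -1.73. Stmn2, which binds tubulin, read 8679.9, 6965 and 1489.7, 4.68-fold lower. Gng2, a G protein gamma subunit, was 7.34-fold lower, Acacb, an acetyl-CoA carboxylase, at least 6.30-fold, and G0s2, an inhibitor of triglyceride lipase, at least 4.93-fold. Gpr4, a proton-sensing receptor, was at least 6.22-fold lower, Sapcd1 6.56-fold and Rundc3a at least 4.87-fold, although a second probe set of Rundc3a gave a log2 ratio of -0.03.

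**Figure D2:**
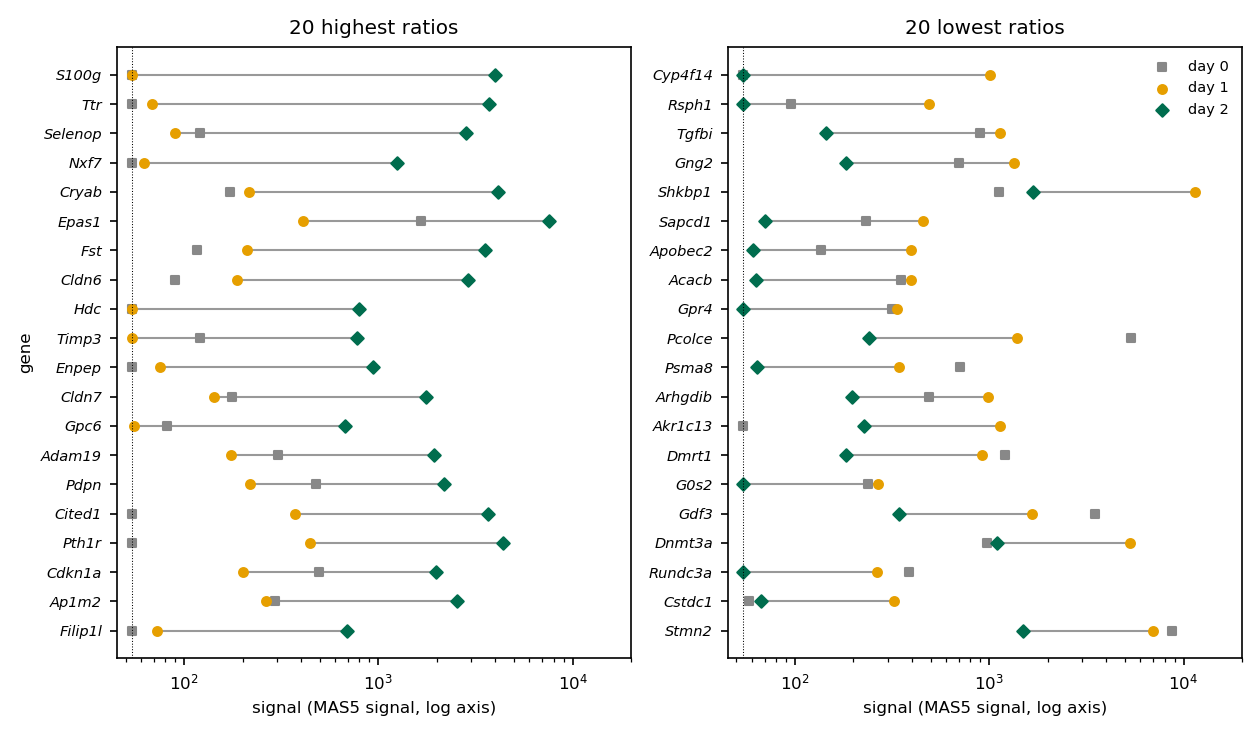
Signals on day 0 (squares), day 1 (circles) and day 2 (diamonds) on a log axis for the 20 genes with the highest and the 20 with the lowest ratio of day 2 to day 1; the dotted line is the floor of 54.0 and each point is 1 array. The highest ratios run from 74.0-fold for S100g to 9.49-fold for Filip1l, and the lowest include Cyp4f14, Shkbp1, Akr1c13 and Dnmt3a, whose day 1 signal lies well above both other days.

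Promoters of 5 of these 40 genes are shown because the overexpressed factor binds GATA motifs: the gene with the highest ratio and the 4 genes that hold such a motif upstream of the start. Sequences are the 250 bases before the transcription start in the gene's own direction, from RefSeq (GRCm38.p6), with capitals for matches. Searched were AGATAA and, as another GATA motif, TGATAA, and beside them the TATA box core TATAAA. Each was searched on both strands, so that its reverse complement also counts, and no matches overlap in these stretches. S100g lies on the minus strand at chrX:162964600-162964849, Nxf7 on the minus strand at chrX:135598782-135599031, Adam19 on the plus strand at chr11:46054252-46054501, Apobec2 on the minus strand at chr17:48432729-48432978 and Cstdc1 on the plus strand at chr2:148781759-148782008.
S100g: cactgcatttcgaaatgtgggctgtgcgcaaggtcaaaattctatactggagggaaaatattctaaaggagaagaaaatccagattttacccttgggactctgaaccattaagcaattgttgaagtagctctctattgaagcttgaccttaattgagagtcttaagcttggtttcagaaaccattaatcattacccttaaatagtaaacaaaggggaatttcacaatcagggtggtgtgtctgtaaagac
Nxf7: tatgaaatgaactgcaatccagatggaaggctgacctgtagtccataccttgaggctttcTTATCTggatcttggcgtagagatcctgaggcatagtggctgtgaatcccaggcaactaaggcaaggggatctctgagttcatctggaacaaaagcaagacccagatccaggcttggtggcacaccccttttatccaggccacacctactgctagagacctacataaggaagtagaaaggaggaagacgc
Adam19: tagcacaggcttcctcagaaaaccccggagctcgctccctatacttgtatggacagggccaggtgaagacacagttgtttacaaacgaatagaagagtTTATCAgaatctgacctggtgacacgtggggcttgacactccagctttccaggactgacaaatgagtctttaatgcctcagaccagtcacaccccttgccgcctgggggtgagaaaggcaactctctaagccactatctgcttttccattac
Apobec2: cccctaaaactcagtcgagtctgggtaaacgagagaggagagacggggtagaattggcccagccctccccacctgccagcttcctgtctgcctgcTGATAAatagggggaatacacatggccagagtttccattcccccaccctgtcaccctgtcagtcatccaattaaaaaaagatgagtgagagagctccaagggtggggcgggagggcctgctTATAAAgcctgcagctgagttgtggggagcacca
Cstdc1: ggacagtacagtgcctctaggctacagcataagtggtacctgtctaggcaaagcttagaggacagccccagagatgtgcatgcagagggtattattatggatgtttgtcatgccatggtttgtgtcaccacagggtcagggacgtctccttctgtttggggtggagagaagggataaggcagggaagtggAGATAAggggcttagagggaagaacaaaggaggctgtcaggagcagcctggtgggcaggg
The S100g stretch holds none of the 3 motifs, although TATAAA follows directly after it, at the start. Nxf7, higher on day 2 by a log2 ratio of at least 4.32, has AGATAA on the opposite strand 190 bases before its start, and Adam19, 11.1-fold higher, has TGATAA on the opposite strand 152 bases before it. Apobec2, at least 6.48-fold lower (395 on day 1 and 61.0 on day 2), has TGATAA 155 bases and TATAAA 34 bases before its start. Cstdc1, at least 4.84-fold lower (322 and 66.7), has AGATAA 60 bases before its start and TGATAA on the opposite strand 29 bases past it. Windows of 300 bases, which run 50 bases past the start, were found for 15 of the 20 highest and 13 of the 20 lowest genes, and 2 of each held a match to either GATA motif.

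Over all genes, the first listed window of a gene held AGATAA in 6.72% of 610 higher genes, 8.12% of 394 lower genes and 6.44% of all 10884 compared genes with a window. For TGATAA the shares were 4.43%, 4.82% and 4.32%. TATAAA was in 10.8% of the higher, 9.64% of the lower and 7.68% of all compared genes. Among the first listed windows of all 27025 genes with one, which include genes not compared, the shares were 11.4%, 9.26% and 14.2%. A match is a run of letters, not a bound site.

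Among the regulators of the primitive endoderm, Gata4, Sox17, Foxa2 and Sox7 stayed under 2-fold, and Cited1, Cubn and Ihh had the highest ratios. Among the 26 compared members of the list 8 were higher and 2 lower (median log2 ratio 0.64). For this list and those below, the shares over all compared genes are 5.61% higher and 3.67% lower. Gata4, the partner of Gata6, read 1546 on day 1 and 2748 on day 2 (log2 ratio 0.83), and its second probe set gave 1.01. Sox17 read 7586 and 12074 (0.67), Foxa2 1401 and 2258 (0.69), and Sox7 1501 and 1959 (0.38, with a dim second probe set at -0.59). These 4 factors all stayed under 2-fold on the probe set used. Pdgfra, the receptor that marks early primitive endoderm, read 9365 and 7986 (-0.23). Above them lay Cited1, from 371 to 3690.3, and Ihh, the Indian hedgehog ligand, from 186 to 894 (4.81-fold higher). Srgn, a secretory granule proteoglycan, read 5.3, 8846 and 24195, 2.74-fold higher. Klb, a coreceptor for endocrine fibroblast growth factors, was 2.16-fold higher. The members lower on day 2 were Foxa1, a forkhead factor (276 and 110.0, 2.51-fold), and Fgfr2, a receptor of fibroblast growth factors (386 on day 0, 2341 on day 1 and 949 on day 2, 2.47-fold).

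Of the secreted and carrier proteins of the visceral endoderm some had high ratios, and more stayed under 2-fold or at the floor. Of 33 on the array 22 could be compared, 7 were higher, 1 lower and 14 within 2-fold (median log2 ratio 0.37). Beside Ttr and Selenop, Ctsh, a cathepsin, read 132 and 954 (7.23-fold higher), and Fgb, a fibrinogen chain, was under the floor on day 1 and read 338 on day 2 (at least 6.25-fold higher). Mttp, which loads lipid onto apolipoprotein B, read 61.3, 245 and 1226, 5.01-fold higher. Pla2g12b was 3.78-fold higher and the apolipoprotein Apom 3.75-fold. The brightest apolipoprotein signals of the list did not differ by 2-fold: Apoe read 7684 and 7094 and Apoc1 1381 and 1232. Ahsg, the plasma protein fetuin, read 149 on day 1 and 58.1 on day 2, at least 2.56-fold lower. Of 20 transcription and patterning genes of the visceral endoderm 4 were higher and 2 lower (median 0.25). Higher were Ihh, Hhex, a homeobox factor of the anterior visceral endoderm (435 and 1039.8, 2.39-fold), Hnf4a, a nuclear receptor of visceral endoderm and liver (181 and 425, 2.34-fold, though its other probe sets gave log2 ratios of -0.06 to 0.66), and Maf, a leucine zipper factor (54.9 and 356, at least 6.48-fold, with a second probe set at 0.58). Lower were Foxa1 and Otx2, a homeobox factor of both epiblast and anterior visceral endoderm (2559, 599 and 223, 2.68-fold).

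In the uptake machinery of the visceral endoderm Cubn, Lrp2 and Dab2 were higher. Cubilin and megalin are the large receptors that take up proteins from the maternal fluid, with amnionless as the membrane anchor of cubilin and Dab2 as the adaptor to clathrin. Cubn read 5.3 on day 0, 2542 on day 1 and 20097 on day 2, 7.91-fold higher. Lrp2, which encodes megalin, read 733, 4263 and 10301, 2.42-fold higher, although another, dim probe set gave a log2 ratio of -0.86. Dab2 read 10964 on day 1 and 24463 on day 2, 2.23-fold higher, and all 4 of its probe sets were above 0. The anchor gene Amn read 4211 and 7428, a log2 ratio of 0.82. Myo6, the motor that moves endocytic vesicles inwards, read 294, 397 and 2755, 6.93-fold higher. In all, 5 of 27 compared endocytic genes were higher and 0 lower (median log2 ratio 0.41), against 5.61% and 3.67% of all compared genes. The general coat genes stayed under 2-fold: Cltc, the clathrin heavy chain, had a log2 ratio of 0.56 and Clta, a light chain, 0.06.

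Lysosomal genes, which degrade what these receptors bring in, counted 10 higher and 0 lower of 43 compared, and 37 lay above 0 (median log2 ratio 0.43). Lgmn, the protease legumain, read 1039, 1466 and 6191, 4.22-fold higher. Lamp2, a lysosomal membrane protein, read 642, 698 and 2382, 3.41-fold higher. Both thus differed by less than 2-fold between day 0 and day 1 and were higher on day 2, as did Ctsa, a carboxypeptidase (1951, 1702 and 4614, 2.71-fold), and Ctsd, the aspartic protease cathepsin D (3057, 3012 and 6989.8, 2.32-fold). Neu1, a sialidase, Naglu, a heparan sulfate glucosaminidase, and Lipa, the acid lipase, were 2.53-fold, 2.45-fold and 2.07-fold higher. The brightest cathepsins stayed under 2-fold, with a log2 ratio of 0.68 for Ctsl and 0.73 for Ctsz.

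Of 22 compared parietal endoderm genes 12 were higher and 1 lower, and the median log2 ratio of 1.06 was the highest of the lists. With the floor at the 60th percentile it was 0.99, under the 1.21 of the visceral endoderm secreted and carrier list. Several of its members also stand in other lists. Pth1r read 43.3 on day 0, 444 on day 1 and 4408 on day 2. Plat, the tissue plasminogen activator, read 138 and 439 (3.18-fold higher), and Thbd, the thrombin receptor thrombomodulin, 33.2 and 281 (at least 5.20-fold higher). Aqp8, a water channel, read 119.5, 1404 and 4655, 3.31-fold higher. Gpx3, a secreted peroxidase, was 2.34-fold higher and Tfpi, an inhibitor of coagulation, 2.02-fold. The exception was Vim, the intermediate filament protein of migratory cells, which read 10566, 14327 and 3209.7, 4.46-fold lower on day 2, with log2 ratios of -2.24 to -2.05 over its 3 probe sets.

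Within the basement membrane Col4a1, Col4a2 and Nid1 were higher, while the chains of the embryonic laminin stayed under 2-fold. Col4a1 read 2147, 14989 and 32402, 2.16-fold higher, and Col4a2 886, 6639.6 and 16887, 2.54-fold higher. Nid1, which links laminin to collagen IV, read 2181, 2904 and 6286, 2.16-fold higher. Lama1, Lamb1 and Lamc1, the chains of the embryonic laminin, had log2 ratios of 0.53, 0.35 and 0.67 and were already at 20502, 18252 and 12399 on day 1. At signals of this size a scanner's range can limit a ratio, and saturation was not recorded in the values used here. Sparc, a matrix protein that binds collagen IV, read 20721 and 40302, a log2 ratio of 0.96. Lower were Col18a1 (2437, 638 and 176, 3.62-fold) and Lama5, a laminin chain of later epithelia (1222 and 602, 2.03-fold). The collagen IV chain Col4a5 and the second nidogen, Nid2, had log2 ratios of at least 0.64 and of 0.41. Over the list 3 of 25 were higher and 2 lower (median 0.40).

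Among the enzymes that fold, modify and export collagen, 5 of 23 compared were higher, 0 were lower and 18 stayed under 2-fold, although 20 lay above 0 and the median was 0.54. P4ha2, a catalytic subunit of prolyl hydroxylase, read 167, 1562 and 6324, 4.05-fold higher, whereas its paralog P4ha1 read 298, 3319 and 5323, a log2 ratio of 0.68. P3h2, a prolyl hydroxylase that acts on collagen IV, read 17.5, 151 and 933, 6.18-fold higher. Plod3, a lysyl hydroxylase that also glycosylates collagen, was 2.52-fold higher and Plod2 1.47-fold. Sec24d, a cargo subunit of the vesicle coat that exports procollagen, was 2.42-fold higher, and Serpinh1, the collagen chaperone, read 363, 15946 and 25803, a log2 ratio of 0.69. General chaperones and translocation genes of the endoplasmic reticulum moved little: 0 of 34 were higher and 1 lower, yet 29 lay above 0 (median 0.26). The lower one was Trib3 (801 and 342), a target of the stress factor Atf4, whose own log2 ratio was -0.71.

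**Figure D3:**
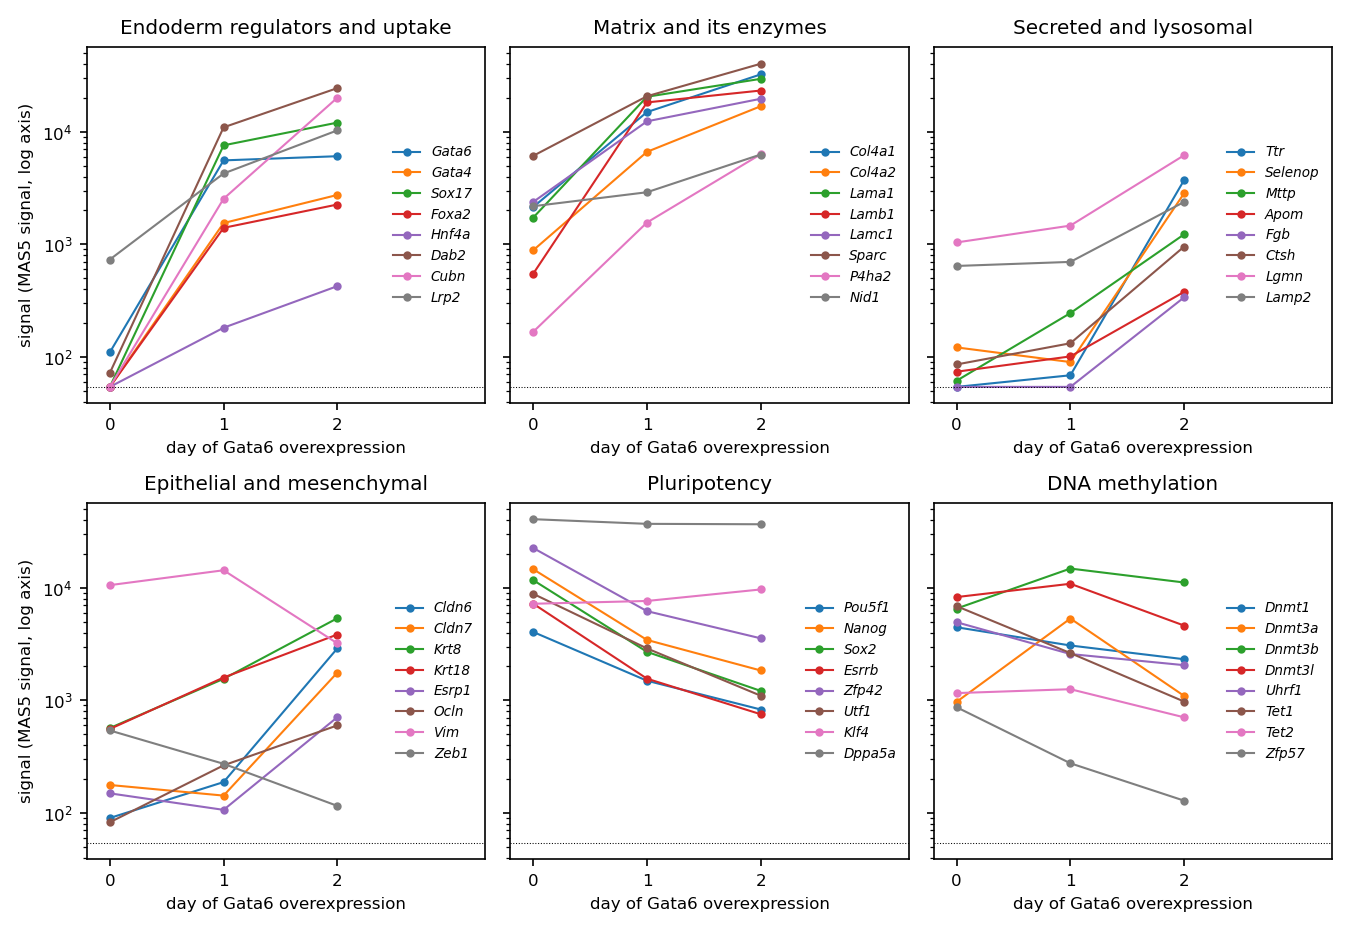
Signals of named genes on day 0, day 1 and day 2 (log axis, 1 array a day, values under the floor of 54.0 drawn at it as the dotted line), in 6 groups. Gata6 is level from day 1 to day 2 while Cubn, Ttr, Selenop, Cldn6 and Cldn7 are higher on day 2, Vim and Dnmt3a are lower on day 2, and Klf4 and Dppa5a stay near their day 0 signal.

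Several epithelial junction genes and keratins were higher on day 2, while Vim, Cdh2 and Zeb1 were lower. Cldn6 and Cldn7, claudins of the tight junction, read 188 and 142 on day 1 and 2894 and 1764 on day 2, 15.4-fold and 12.4-fold higher. Esrp1, the epithelial splicing regulator, read 149, 106 and 708, 6.66-fold higher, and Ocln, the tight junction protein occludin, was 2.27-fold higher. Krt8 and Krt18, the keratin pair of simple epithelia, read 1552 and 1594 on day 1 and 5366 and 3846 on day 2, 3.46-fold and 2.41-fold higher. In this list 7 of 27 were higher and 1 lower (median 0.25), the lower one being Pkp2, a desmosomal plaque protein (2.61-fold lower). Cdh1, the epithelial cadherin, read 3131, 1249 and 1480.2, a log2 ratio of 0.25. Among 16 mesenchymal genes 1 was higher and 3 lower. Cdh2, the neural cadherin, was 2.48-fold lower and Zeb1, a repressor of epithelial genes, 2.37-fold lower, with a second Zeb1 probe set at -0.02. Snai1, another such repressor and a gene of the parietal endoderm, was 2.25-fold higher (215, 673 and 1513). The median of the mesenchymal list was 0.15, and -0.05 where the floor was set at the 25th percentile.

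Part of the pluripotency genes were lower again on day 2 than on day 1. Of 31 naive pluripotency genes 10 were lower and 1 higher (median log2 ratio -0.67), and of 25 core and general pluripotency genes 7 were lower and 0 higher (median -0.42). Sox2 read 11698, 2696 and 1212, 2.22-fold lower on day 2 than on day 1. Nanog read 3442 and 1841 (log2 ratio -0.90) and Pou5f1 1493 and 828 (-0.85), both short of 2-fold. Tfcp2l1, a factor of the naive network, read 6372, 4138 and 1685, 2.46-fold lower, and Dppa4, a chromatin protein of pluripotent cells, 6644, 4654 and 1894, 2.46-fold lower. For this pair the second day was the larger step on a ratio scale, as it was for Tcl1, a cofactor of Akt (4041, 3399 and 1298), and Mybl2, a cell cycle transcription factor (7744, 6417 and 2583). Jam2, an adhesion molecule, was 3.08-fold lower, Nr5a2, a nuclear receptor, 2.48-fold (a log2 ratio of -0.90 with the mean over its probe sets) and Utf1, a chromatin protein, 2.63-fold.

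Other genes of the pluripotent state stayed under 2-fold. Klf4 read 7216, 7641 and 9672, a log2 ratio of 0.34 between the later days, Klf5 16813 and 14701 (-0.19) and Tbx3 4423 and 3559 (-0.31). Dppa5a read 40759, 37051 and 36734, Sall4 11337 and 10794 (-0.07) and Lin28a 4957 and 4279 (-0.21). The naive list's higher member was Slc27a2, a fatty acid transporter (2.48-fold), and Lifr, the receptor for leukemia inhibitory factor, had a log2 ratio of 0.76.

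Among 16 compared DNA methylation genes 5 were lower and 0 higher (median -0.47). Dnmt3a, a de novo methyltransferase, read 969.6 on day 0, 5334 on day 1 and 1094 on day 2, 4.88-fold lower than on day 1, and all 5 of its probe sets followed this course, with log2 ratios of -2.37 to -1.37. Dnmt3l, its cofactor, read 8277, 10866 and 4616, 2.35-fold lower. Dnmt3b, the other de novo enzyme, read 6544, 14836 and 11154, a log2 ratio of -0.41, with a second probe set at -1.01. All 3 thus had their highest signal on day 1. Tet1, which oxidises methylcytosine, read 6871, 2629 and 975, 2.70-fold lower, and Zfp57, which guards imprints, was 2.15-fold lower. Dnmt1 and Uhrf1, the maintenance pair, had log2 ratios of -0.41 and -0.33.

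Polycomb genes, repressors of developmental regulators, mostly differed by less than 2-fold. Of 32 compared 2 were lower and 1 higher (median -0.11). Jarid2 and Mtf2, accessory subunits of Polycomb complex 2, read 7713 and 9522 on day 1 and 2818 and 4087 on day 2, 2.74-fold and 2.33-fold lower (Mtf2 at -0.90 with the mean over its probe sets). Its core subunits Eed, Suz12 and Ezh2 had log2 ratios of -0.87, -0.53 and -0.57. Pcgf5, a subunit of a variant complex 1, was 2.21-fold higher, and Rnf2, the ubiquitin ligase of complex 1, had a log2 ratio of -0.32.

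**Figure D4:**
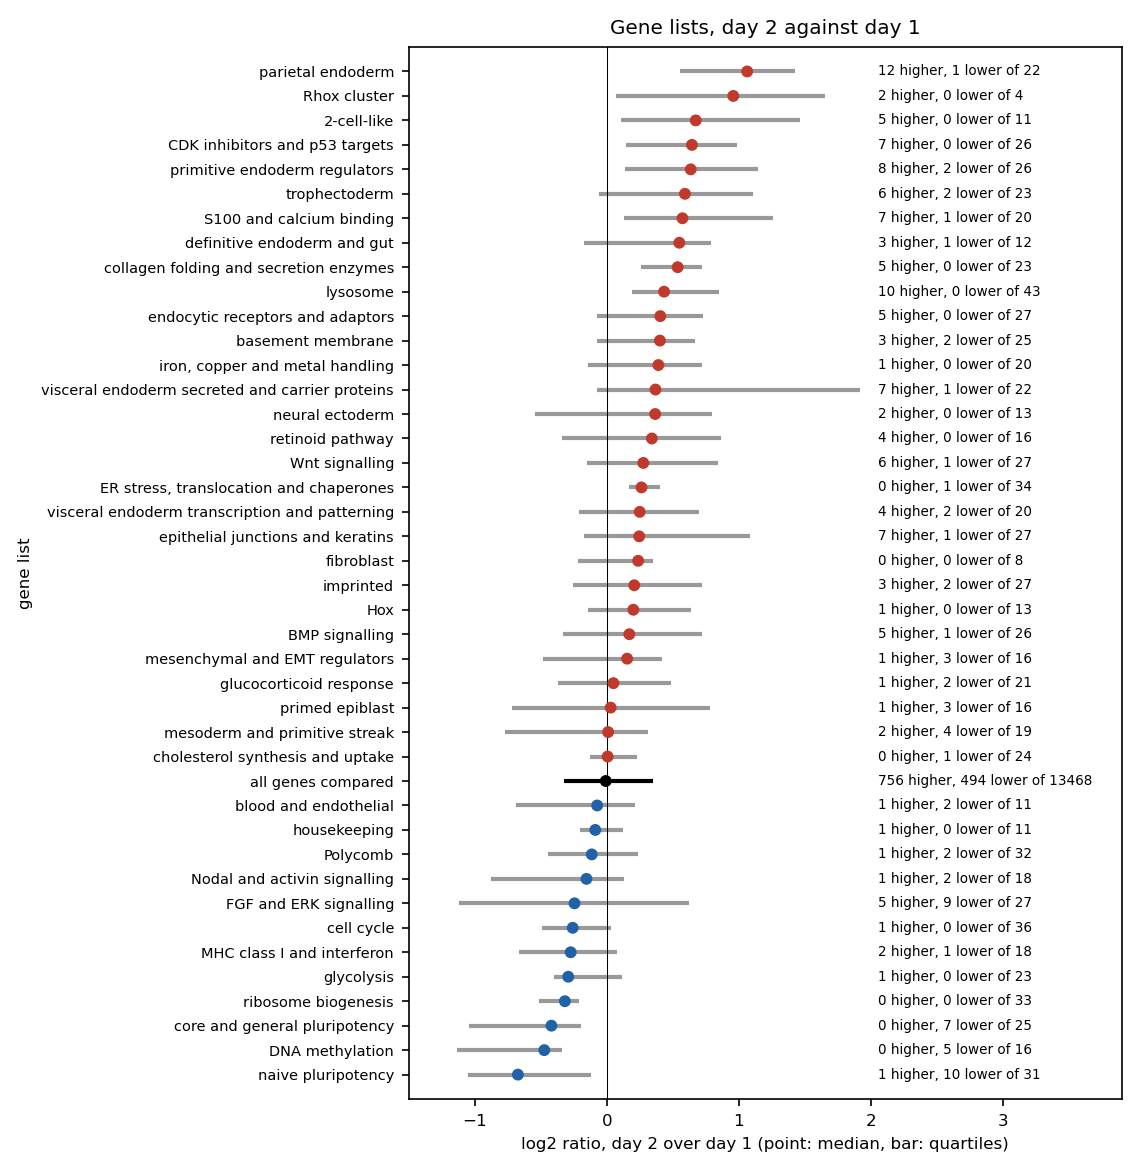
Median (point) and quartiles (bar) of the log2 ratio of day 2 over day 1 for each of 41 gene lists with the counts past 2-fold beside them, and all 13468 compared genes in black; lists share some genes. Parietal endoderm lies at the top with a median of 1.06, and naive pluripotency at the bottom with -0.67.

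Genes of the fibroblast growth factor and ERK pathway lay on both sides. Of 27 compared genes of the FGF and ERK list 9 were lower and 5 higher (median -0.24). Feedback inhibitors and ETS factors that ERK induces made up most of the lower group: Spry4 (1023, 616 and 194) was 3.17-fold lower, Etv5 (7269.8, 1662 and 725) 2.29-fold, Dusp6 (1716, 184 and 84.7) 2.17-fold and Il17rd 2.50-fold. Each of these was also lower on day 1 than on day 0, as was Spred1 (1435, 542 and 256). Spred1 was 2.12-fold lower on day 2 than on day 1, with probe sets from -1.08 to 0.33. Dusp4 did not share this order: it read 298.5, 634 and 294, 2.16-fold lower on day 2 than on day 1. A second Il17rd probe set gave a log2 ratio of -0.03, and the 4 Spry4 probe sets ran from -2.18 to -0.36. Etv4 read 884, 215 and 13.9, at least 3.98-fold lower, with a second probe set at -0.55. Rasgrp2, an activator of Rap, read 227 and 18.2, at least 4.20-fold lower, with probe sets from -2.07 to 0.41. Other genes that ERK induces stayed under 2-fold: Spry1, Spry2 and Spred2, feedback inhibitors, had log2 ratios of -0.14, -0.68 and -0.42, Ier3 had 0.58, and the dim Egr1 and Fos had at least 0.78 and at least 0.67. Dusp5, an ERK phosphatase, was among the higher genes, under the floor on day 1 and 125 on day 2 (at least 2.32-fold higher). The other higher genes were Klb, given above, and receptors or ligands: Fgfr4 read 211 and 784 (3.72-fold higher), Fgf10 310.5 and 662 (2.13-fold higher) and Fgf1 135 and 411 (3.04-fold higher). With Fgfr2 at 2.47-fold lower, the FGF receptors of the list did not share a direction.

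In the bone morphogenetic protein list 5 of 26 genes were higher and 1 lower (median 0.17), against 5.61% and 3.67% of all compared genes. Bmper, a secreted modulator, read 36.6, 769 and 2562, 3.33-fold higher. Id4 and Id2, inhibitors of helix-loop-helix factors, were 3.07-fold and 2.38-fold higher, whereas Id1 and Id3 had log2 ratios of -0.32 and -0.34. The ligand Bmp4 read 4682, 620.5 and 251, 2.47-fold lower, and Bmp2 read 17.8, 2963 and 4056, a log2 ratio of 0.45. In the Nodal and activin list 1 of 18 was higher and 2 lower: Fst was the higher one, and Gdf3 and Foxh1, the nuclear partner of Nodal signalling (2.07-fold), the lower ones. In the Wnt list 6 of 27 were higher and 1 lower (median 0.28). Its widest member was Cyp26a1, the enzyme that degrades retinoic acid, at 110.4, 532 and 4787, 9.002-fold higher. Wnt6, a ligand of the pathway, read 561, 914 and 278, 3.29-fold lower, and Dkk1, a secreted Wnt antagonist, 79.6, 5816 and 5050.0, a log2 ratio of -0.20. Of 16 retinoid genes 4 were higher and 0 lower: Ttr, Cyp26a1, Rdh10, a retinol dehydrogenase (390.4 and 1235, 3.16-fold), and Stra6, the retinol-binding protein receptor (127 on day 2, at least 2.35-fold).

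Some inhibitors of the cell cycle were higher, and the replication helicase genes stayed under 2-fold. Of 26 compared CDK inhibitors and p53 targets 7 were higher and 0 lower (median 0.64). Cdkn1a read 494, 202 and 1978, and Cdkn1c, an imprinted inhibitor, 364, 318 and 956, 3.004-fold higher. The other CDK inhibitors of the list had log2 ratios from -0.38 (Cdkn2c) to 0.68 (Cdkn2b). Btg2, an antiproliferative factor, read 486, 394 and 1253, 3.18-fold higher, and Phlda3, a repressor of Akt signalling, 1189, 843 and 2129, 2.52-fold higher. Cdkn1a, Cdkn1c, Btg2 and Phlda3 all had their lowest signal on day 1. Plk2 and Bbc3 were 3.23-fold and 2.74-fold higher (Plk2 at a log2 ratio of 0.85 with the mean over its probe sets), and Mdm2 and Ccng1 had log2 ratios of 0.85 and 0.80. Below 0 lay 5 of the 26, among them Sesn1 (-0.69), Pmaip1 (-0.58) and Perp (-0.42). Of 36 cell cycle genes 1 was higher and 0 lower, and the median was -0.26. The higher one was Ccnd2, a D-type cyclin, at 425, 411 and 1687, 4.11-fold higher with 7 probe sets from 0.56 to 2.33, whereas Ccnd3 read 4132 and 2297 (-0.85, with a second probe set at 0.57). The replication helicase genes Mcm2 to Mcm7 had log2 ratios from -0.65 (Mcm2) to -0.19 (Mcm7).

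Most ribosome biogenesis genes lay slightly below 0. None of the 33 compared passed 2-fold, yet 31 lay below 0, with a median of -0.32 and the widest at -0.93 for Polr1e, an RNA polymerase I subunit. In glycolysis 1 of 23 was higher and 0 lower (median -0.29). The higher one was the lactate and pyruvate transporter Slc16a1, at 3817, 4774 and 16256, 3.41-fold higher, whereas Ldhb and Pdk1 had log2 ratios of -0.91 and -0.93. Cholesterol genes were level, with 0 of 24 higher, 1 lower and a median of 0.01. For 11 housekeeping genes the median was -0.09, and Actb read 36977 and 34502. The higher one of these was B2m, the light chain of the class I histocompatibility complex, at 617, 1622 and 4720.4, 2.91-fold higher. The heavy chain H2-K1 was 2.67-fold higher, though its 4 probe sets gave log2 ratios from 0.11 to 1.49. Of 18 genes of class I presentation and interferon response 2 were higher and 1 lower, so most did not share the higher signal of day 2.

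Of 20 compared S100, annexin and calcium transport genes 7, S100g among them, were higher, 1 was lower and 12 stayed under 2-fold (median 0.57). Anxa2, Anxa4 and Anxa5, annexins that bind membranes, read 1401, 489 and 801 on day 1 and 3609, 1149 and 1915 on day 2, 2.58-fold, 2.35-fold and 2.39-fold higher. The Anxa2 log2 ratio was 0.95 with the mean over its probe sets and 0.00 where unspecific probe sets were left out, both short of 2-fold. S100a1 read 71.5 and 470.5, 6.58-fold higher, but its second probe set gave a log2 ratio of 0.57. S100a6 was the lower member, at 1798, 364 and 171, 2.13-fold lower. Common targets of glucocorticoids, relevant because dex was the agent, did not share a direction: 1 of 21 was higher and 2 lower (median 0.05). Both days are labelled as Gata6 overexpression and the timing of dex is not given, so a response to dex was not tested. The higher one was Cdkn1c, which also stands in the CDK inhibitor and imprinted lists, at 364, 318 and 956, 3.004-fold higher. Mt1 had a log2 ratio of 0.94. Fkbp5 read 3375, 1284 and 786, a log2 ratio of -0.71. The lower ones were Pdk4, 2.55-fold lower, and Angptl4, at 719, 391 and 103, 3.81-fold lower. The Angptl4 log2 ratio was likewise -0.96 with the mean over probe sets and 0.00 without unspecific ones.

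Genes of other lineages were mostly low or under 2-fold. Several lists of such genes nevertheless held a larger share of higher genes than the 5.61% of all compared genes. This was so for the trophectoderm, 2-cell-like, definitive endoderm, neural, mesoderm and Hox lists. Of 12 definitive endoderm and gut genes 3 were higher and 1 lower (median 0.55). The higher ones were Krt19, Hhex and Trh, whereas Sox17 and Foxa2 stayed under 2-fold. Of 23 trophectoderm genes 6 were higher and 2 lower (median 0.59), but the higher ones were Krt8 and Krt18, Phlda2, a placental growth regulator, Rhox6 and Rhox9, homeobox genes of the X chromosome, and Plac1 (155 and 475, 3.07-fold), while Elf5 and Tpbpa were under the floor and Cdx2, a trophoblast regulator, read 80.0 and 120.6. Rhox6 and Rhox9 read 293 and 249 on day 1 and 1195 and 714 on day 2, 4.07-fold and 2.87-fold higher, whereas Rhox5 read 10252 and 13466 (0.39). Of 11 genes of the 2-cell-like state 5 were higher and 0 lower (median 0.67). Usp17la, a deubiquitinase, read 251, 640.2 and 2511, 3.92-fold higher, Zfp352 117, 214 and 684, 3.19-fold higher, and Tcstv3 and Tcstv1 were 4.34-fold and 2.38-fold higher. Genes of this kind have close copies in the genome, and their probe sets may read more than 1 copy, which was not tested. Of 13 Hox genes 1 was higher, Hoxd8 at 71.8 and 187. Of 19 mesoderm genes 2 were higher and 4 lower, and of 13 neural genes 2 were higher and 0 lower. In the imprinted list 3 of 27 were higher and 2 lower, among them Peg3 (550.1, 1605 and 4500.5, 2.80-fold higher, a log2 ratio of 0.99 with the mean over its probe sets) and Mest (2192, 878 and 294, 2.98-fold lower).

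By position in the genome, the X chromosome had the largest share of higher genes: 45 of 440, or 10.2%, against 5.46% of the genes elsewhere, while its share of lower genes was 3.86% against 3.66%. Neighbouring genes are not independent, the position was examined after the values were seen, and the shares are a description. The share of higher genes was larger on X than elsewhere under each of the 9 alternative settings, from 6.15% against 3.5% to 18.6% against 13.6%. Beside S100g, Nxf7, Cited1, Rhox6, Rhox9 and Lamp2, its higher genes included Gpc3, a glypican (391, 293 and 1734, 5.92-fold higher), Clcn5, an endosomal chloride transporter (1358, 1148 and 4699, 4.09-fold), Ubqln2, a proteasome shuttle factor (3305, 4556 and 15946, a log2 ratio of 1.81), and Dusp9, a phosphatase of ERK (1604, 2424 and 6619.6, 2.73-fold). They thus came from several families and lay between dim and bright signals.

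**Figure D5:**
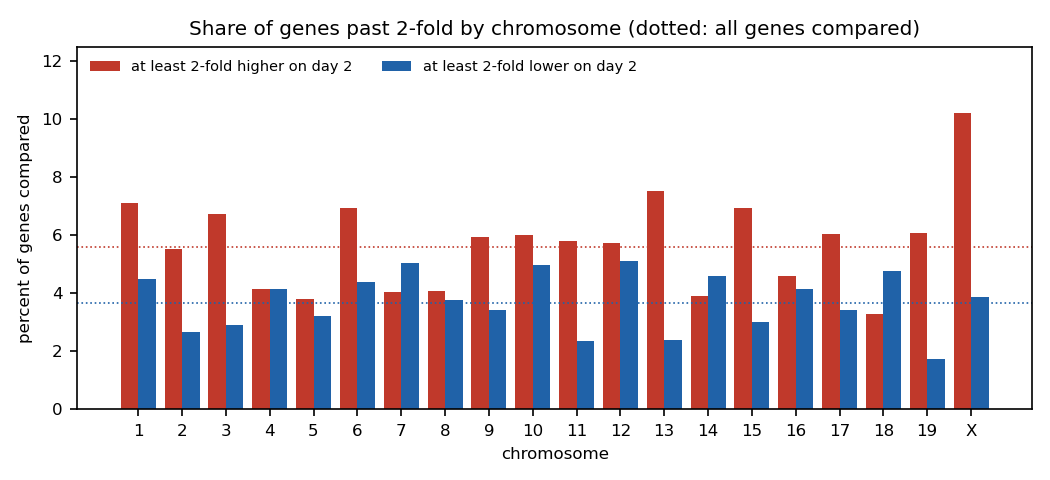
Percent of compared genes on each chromosome that were at least 2-fold higher (red) or lower (blue) on day 2 than on day 1, with dotted lines at the shares over all genes compared (5.61% and 3.67%). The X chromosome has the tallest red bar, 10.2% of 440 genes, and a blue bar close to its dotted line.

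Genes past 2-fold also lay beside each other. Of 755 higher genes with a position 150, or 19.9%, had a compared neighbour that was higher too, against 10.2% of 12692 other genes. For lower genes it was 81 of 493, or 16.4%, against 6.86% of 12954. The longest runs held 4 genes: Snrk, Ano10, Abhd5 and 9530059O14Rik on chromosome 9 and D13Ertd608e, Tcstv1, Gm20767 and AF067061 on chromosome 13 were higher, and Cd247, Dusp27, Gpa33 and Mael on chromosome 1 were lower. A run of 3 on chromosome 9 held Cryab with Hspb2, another small heat shock gene beside it, and 2310030G06Rik. Another on chromosome 13 held Ocln with Marveld2, which encodes a further tight junction protein, and Naip6. Runs can include copies of a gene that share probes, and this was not tested.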

How the data were processed

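Total RNA of mouse ES cells was read on 3 Affymetrix arrays, 1 each for day 0, day 1 and day 2. The deposited table gives 1 linear intensity per probe set, for which the submitters' processing notes name MAS5, with no version or scaling target. The 2% trimmed means were 497.5, 497.6 and 497.7, so the deposited arrays already shared a scale.

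Here each array was scaled to a common 2% trimmed mean, values under the 40th percentile (54.0) were set to it, and log2 was taken with Python 3.11.15, numpy 2.4.6 and pandas 2.3.3. Of 45101 probe sets, 64 were controls, 34945 were annotated to 1 gene, 932 to several and 9160 to none. By gene identifier 34741 matched RefSeq (GRCm38.p6), which was used for names, promoters and order on chromosomes. Each gene was read from the brightest of its probe sets, by mean log2 value on day 0, day 1 and day 2.

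The 20 highest and 20 lowest genes past 2-fold whose probe sets had the same sign, the 4 widest members of each of 41 lists and a fixed set with Gata6 made 178 named genes. Other members are examples chosen after their values were seen, and Gapdh had no probe set of its own gene here. The array had 916 of the 1001 listed genes, and 783 were compared. The comparison, its members and the lists were chosen with earlier results of these data known. The script was checked on simulated data. With 1 array a day no p-value, SD between samples or interval is given. Alternatives changed the floor, the threshold, the scaling (quantile, or loess with statsmodels 0.14.6), the probe set rule, and left out unspecific probe sets.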

Additional observations from a re-analysis of the deposited data

How the results depend on the processing

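The counts depended on the floor and the threshold. A floor at the 25th percentile gave 1336 higher and 912 lower genes, one at the 60th gave 440.0 and 272, and none gave 2510.0 and 1921. At 3-fold the counts were 228 and 112. The visceral endoderm secreted and carrier list reached a median of 1.21 under the higher floor. The share of calls that were higher was 60.5%, between 55.9% (quantile normalization) and 62.8% (pseudocount of 50). No called result changed sign, while 4 list medians near 0 did: housekeeping (0.03 without unspecific probe sets), mesenchymal (-0.05 under the lower floor), mesoderm (-0.10 under the higher floor, -0.03 with quantile or loess scaling) and primed epiblast (-0.41 under the higher floor, -0.01 with quantile scaling). Of 133 named genes past 2-fold, all stayed past it with quantile or loess scaling, the lower floor, no floor, and the brightest probe set over day 1 and day 2, an alternative chosen after seeing the data. The count was 112 under the higher floor, 117 with the mean over probe sets and 121 with the pseudocount. Unspecific probe sets are those made to read more than 1 transcript, of the same gene or of several genes. When they were left out, the count was 114 of 119 with a value. Cryab, Anxa2 and Angptl4 then had a log2 ratio of 0.00, from probe sets at the floor on both days, and S100a1 0.57. With the mean over probe sets Maf was at 0.55, Lrp2 at 0.62, Plk2 at 0.85, Nr5a2 at -0.90, Mtf2 at -0.90, Rasgrp2 at -0.82, Zeb1 at -0.31 and Peg3 at 0.99. The cause was not tested. No paired analysis was possible because each day has 1 array.

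Depth in the sense of counts does not exist for these arrays. Signals near 54.0 have no order, and 4725 genes at the floor on both days were not compared. The single array a day limits every value, since it gives no spread between cultures.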

Other observations

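Some gene families outside the lists were examined after the values were seen, so their counts are a description. Tetraspanins, membrane organisers of endosomes and the cell surface, held 5 higher and 0 lower of 16 compared genes, or 31.2% against 5.61% of all genes. Sorting nexins, which shape endosomal tubules, had 1 of 28 past 2-fold, but 22 lay above 0 with a median log2 ratio of 0.41. Subunits of the vacuolar proton pump, which acidifies endosomes and lysosomes, were similar: 1 of 21 was higher and 1 lower, 18 lay above 0 and the median was 0.43. Solute carriers held 20 higher genes of 255, or 7.84%, and 5 lower, or 1.96%. Semaphorins, guidance cues, held 3 higher and 1 lower of 17.

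Small nucleolar RNA host genes held 0 higher and 3 lower of 14, with a median of -0.53. Proteins of the mitochondrial ribosome held 0 past 2-fold of 76, and 66 lay below 0 with a median of -0.30. Cytoplasmic ribosomal proteins held 0 higher and 1 lower of 47, with 42 below 0 and a median of -0.11. Proteasome subunits held 0 higher and 1 lower of 39, with 35 below 0 and a median of -0.18. Subunits of respiratory complex I had 0 of 43 past 2-fold and a median of -0.08. Dual specificity phosphatases held 5 higher and 4 lower of 21, with a median of 0.00, so this family had a wide spread around no common direction.

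Probe sets with no gene name here were counted separately: of 4202 compared, 175 were higher, which is 4.16%, and 114 lower, which is 2.71%. A higher one read 586.6 on day 0, 867.0 on day 1 and 4608 on day 2. A lower one read 1254 on day 0, 1328 on day 1 and 233.2 on day 2.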
